A study of Rattus norvegicus with 4 samples.

Results

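Cytosolic ribosomal proteins were followed through 62 probe sets of an oligonucleotide array, out of 8799 in all. They were taken by symbol: every probe set whose only gene symbol in the platform annotation began with Rpl or Rps and a digit, or with Rplp, apart from the Rps6k kinases. They stand for 43 genes, with 43 probe sets of 30 genes carrying large subunit names and 19 probe sets of 13 genes carrying small subunit names. Of the genes, 36 carry the name of a ribosomal protein, 5 that of a paralog or copy (Rpl3l, Rpl19l4, Rpl36al1, Rplp1l3 and Rps27l) and 2 are annotated as pseudogenes (Rps2-ps1 and Rps4x-ps9). A further 40 probe sets that list several symbols, at least 1 of them from the family, were left out of the members because no single gene can be given to them.

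The RNA came from rat myometrium, the muscle layer of the uterus. The rats, given as 60 days old, had been ovariectomized 1 week before the injection, so all 4 groups lacked ovarian hormones. The groups were estradiol benzoate at 24 h, control at 24 h, estradiol benzoate at 6 h and control at 6 h, where treated rats received 10 µg/kg under the skin and controls the vehicle. Each group was 1 array of RNA pooled from 6 animals, so a difference within a time sets a pool against a pool and has no replicate check. In pooled tissue, fewer cells of a type and less RNA per cell cannot be told apart.

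Ribosomal proteins are the protein part of the small and the large ribosomal subunit, which read messenger RNA and join amino acids. The cell needs them in equal numbers, and their messengers are among the most abundant of any tissue. In mammals these messengers usually begin with a cytosine and a run of pyrimidines, the terminal oligopyrimidine or TOP start, through which growth signals set how much of them is translated rather than how much is present. Estrogen is known to make the uterus of rodents grow, with more ribosomes and protein per cell.

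The start of the messenger is a feature that the choice by name did not use. RefSeq promoters on build GRCr8, each with 250 bases before the annotated start, were found by symbol for 37 of the 43 member genes. Rpl19l4, Rpl27, Rpl30, Rps2-ps1, Rps29 and Rps4x-ps9 had no entry. A TOP start, here a cytosine at the first base followed by 4 pyrimidines, was written at 11 of these 37 starts, which is 29.7%, against 2.63% of 33469 promoters of all genes. The letters CGGAAG, searched on both strands of the 300 bases, were in 15 of 37 promoters (40.5%) against 16.6% of all, and ATGGCG, searched likewise, in 14 (37.8%) against 9.98%; these 2 motifs can overlap in the letters CG. A looser rule took a cytosine and 5 pyrimidines in a row between 10 bases before and 12 after the start. It was met by 20 of 37 promoters (54.1%) against 15.2% of all. Annotated starts can lie some bases from the start used in a tissue, and a match is a description of letters only. Of 5 genes with a promoter that left the family pattern on the array on at least 1 probe set, by the rule given further on, 1 had a TOP start, Rpl17, and of the other 32 genes 10 had one. This split uses the strict rule at the annotated first base alone. The following windows run from 10 bases before the start to 20 bases from it, with the TOP run in capitals. They are shown to let a reader see starts with and without the run, both among genes that kept to the family (Rpl19, Rplp0 and Rps3a with it, Rpl11 and Rps6 without) and among genes that left it (Rpl17 with it, Rpl4 and Rpl36al1 without). The windows of Rpl4 and Rpl36al1 do hold a pyrimidine run near the start, only not one that begins at the annotated first base.
Rpl19, chr10:83519054-83519083, plus strand: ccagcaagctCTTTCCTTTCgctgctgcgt
Rplp0, chr12:46718371-46718400, minus strand: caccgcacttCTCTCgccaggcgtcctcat
Rps3a, chr2:173827023-173827052, minus strand: gtacttccgcCCTTTTggctctcagagcgg
Rpl17, chr18:70856266-70856295, plus strand: ttcgcgcttcCTCTTCCTgttagcggccag
Rpl11, chr5:153560783-153560812, minus strand: cttgaagcttgtttggtgctggggagcatc
Rps6, chr5:106420521-106420550, minus strand: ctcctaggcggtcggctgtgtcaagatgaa
Rpl4, chr8:73566467-73566496, plus strand: tcttccttttcctgtgggagcagccgggta
Rpl36al1, chr6:93392239-93392268, minus strand: cttccgctccatccgtccctttcctgttcg

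Values are MAS5 signals, the scaled brightness that the Affymetrix method gives each probe set. A signal counted as measured when it lay above a floor at the 40th percentile of its array, between 89.3 and 108 signal units. Estrogen targets went against the labels at 6 h. Over 12 probe sets, Igf1, Pgr, S100g and Hsd11b2 summed to 37311 with estradiol benzoate and 8944 in the control at 24 h. At 6 h the sum was 4387 for the estradiol benzoate label and 43044 for the control label. Whether the labels of the 2 arrays at 6 h were exchanged cannot be told from the files. Directions at 6 h are therefore those of the arrays as labelled, and an exchange would turn every sign given at 6 h and change the comparisons between the times. The scans of the 24 h pair and of the 6 h pair fell on different days, so the effect of time and that of the scanning day cannot be told apart, and the instrument record of the 24 h control holds a communication error during the wash. Spiked-in bacterial control transcripts, 9 probe sets, had a geometric mean signal of 4280 with estradiol benzoate and 3182 in the control at 24 h, and of 1387 and 1818 on the arrays labelled estradiol benzoate and control at 6 h. Smooth muscle markers fixed for the tissue check were above the floor in 13 of 13 probe sets on every array. Their summed signal was 152479 with estradiol benzoate and 139327 in the control at 24 h, and 96714 and 119136 for the labels estradiol benzoate and control at 6 h.

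Of the 62 member probe sets, 58 were above the floor on all 4 arrays and the other 4 on none. Those 4 were both probe sets of the pseudogene Rps2-ps1, the only one of Rplp1l3 and 1 of 2 of Rpl3l, with signals between 7.41 and 55.8. Rpl3l is a paralog of Rpl3 known from heart and skeletal muscle, and its other probe set read 279 with estradiol benzoate and 186 in the control at 24 h, and 185 and 322 on the arrays labelled estradiol benzoate and control at 6 h. Members with large subunit names passed the floor in 41 of 43 probe sets and those with small subunit names in 17 of 19.

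**Figure D1:**
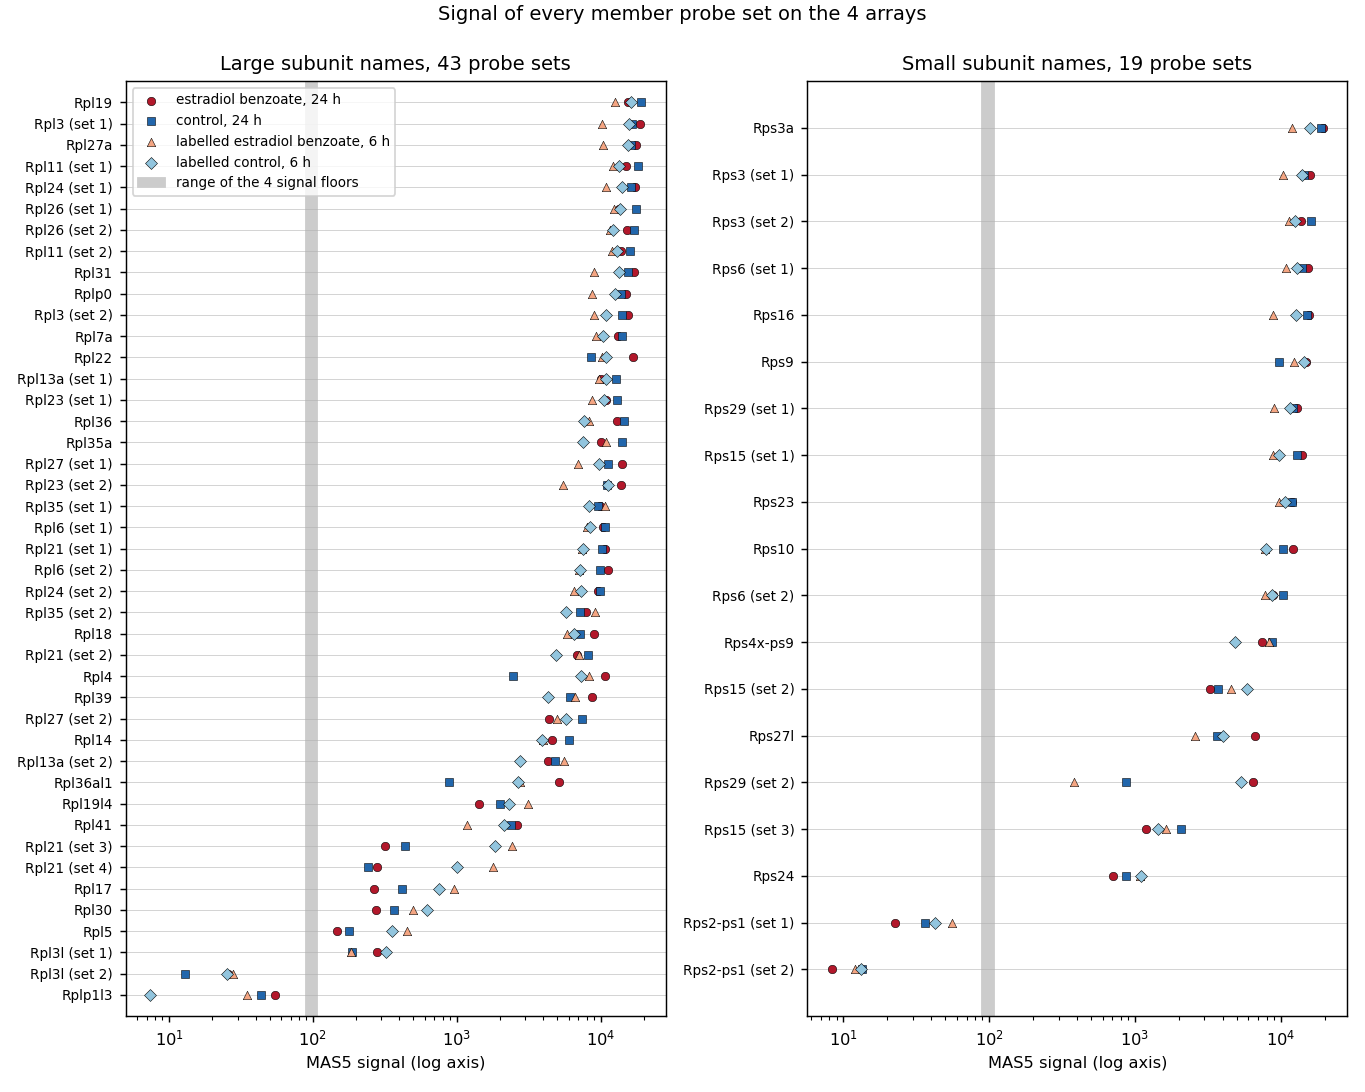
MAS5 signal on a log axis for each of the 62 member probe sets, with large subunit names on the left and small subunit names on the right, sorted by mean log2 signal, 1 symbol per array and the range of the 4 floors as a grey band. Most rows lie above 5000 with the 4 arrays close together, while Rpl4, Rpl36al1, 2 of 4 rows of Rpl21 and 1 of 2 rows of Rps29 spread widely.

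The family sat at the bright end of every array. The median member above the floor was at percentile 98.4 of all probe sets with estradiol benzoate and at percentile 98.4 in the control at 24 h, and at percentiles 98.7 and 98.3 on the arrays labelled estradiol benzoate and control at 6 h. Member signals made up 8.94% and 8.63% of the summed signal with estradiol benzoate and in the control at 24 h, and 7.28% and 7.82% in the same order at 6 h. Among the brightest 1% of probe sets, 88 per array, members numbered 21 and 22 on the estradiol benzoate and control arrays at 24 h, and 21 and 23 at 6 h. Family probe sets with several symbols added another 16 and 18 at 24 h, and 20 and 14 at 6 h.

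By mean log2 signal the 5 brightest member genes were Rps3a, Rpl19, Rpl3, Rpl27a and Rpl11. Rps3a, a small subunit protein, read 19481 with estradiol benzoate and 18902 in the control at 24 h, and 11882 and 15874 on the arrays labelled estradiol benzoate and control at 6 h. Rpl19, which forms a bridge to the small subunit, read 15442 and 19236 at 24 h, and 12667 and 16207 in the same order at 6 h. These signals lay close to the maxima of the arrays, which were 20733 and 20934 at 24 h, and 13861 and 17995 at 6 h in that order. On the estradiol benzoate and control arrays 31 and 27 members lay within 2-fold of the maximum at 24 h, and 36 and 26 did so at 6 h. The files hold no saturation flag, so whether such probe sets could still report more RNA was not tested. Signals of different probe sets also differ with their sequence, so the order of brightness is not the order of messenger amounts.

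At the dim end of the genes named as ribosomal proteins, Rpl5, Rpl30, Rpl17, Rps24 and Rpl41 had a single-symbol probe set each. Rpl41, one of the shortest proteins known in eukaryotes, read 2623 with estradiol benzoate and 2396 in the control at 24 h, and 1177 and 2139 on the arrays labelled estradiol benzoate and control at 6 h. Rpl30, a large subunit protein, read 276 and 365 at 24 h, and 498 and 626 at 6 h, so both 24 h arrays were below both 6 h arrays. Rps24, a small subunit protein, read 707 and 871 at 24 h, and 1085 and 1109 at 6 h, in the same arrangement. Rpl5 and Rpl17 are described below with the probe sets that left the family.

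The comparison at 24 h asks what the tissue held a day after estradiol benzoate, and the family hardly differed as a whole. Of 58 measured members 3 reached 2-fold on the higher side with estradiol benzoate and 0 on the lower side, 5.17% in all. Over 5776 probe sets 17.8% passed the rule, 8.9% on the higher and 8.93% on the lower side. Scaling to a common median made the split 5 to 0 in members and 630 to 369 in all probe sets, in place of 514 to 516, and with quantile normalization it was 552 to 390 in all. The median log2 difference was 0.04 over members, -0.04 over large subunit names and 0.04 over small subunit names, beside -0.16 over all probe sets, and with quantile normalization the median over members was -0.02. Of the 58, 31 lay above 0 and 27 below. Among 2017 other probe sets within the range of brightness that holds the middle 90% of members, 17.8% passed and the median was -0.08. Among 209 others at or above the 25th percentile of members in brightness, a narrower set chosen after seeing the data, 7.18% passed and the median was 0.01. The share in the members thus lay nearer to that of very bright probe sets than to that of all, a difference that was not tested.

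The 3 members higher at 24 h were Rps29, Rpl36al1 and Rpl4. For Rpl4, a large subunit protein that lines the exit tunnel of the growing chain, the signal was 10767 with estradiol benzoate and 2475 in the control at 24 h, a 4.35-fold difference. On the 6 h arrays it was 8300 with the estradiol benzoate label and 7360 with the control label. The control at 24 h was thus the low array, and the other 3 lay between 7360 and 10767. Rpl36al1, a copy of the large subunit protein Rpl36a, read 5109 with estradiol benzoate and 885 in the control at 24 h, a 5.77-fold difference, and 2758 and 2650 on the arrays labelled estradiol benzoate and control at 6 h. Here too the control at 24 h was the lowest, and the estradiol benzoate array was also 1.85-fold above the array of that label at 6 h. Being low on the 24 h control alone, by 2-fold or more from every other array, was found in 188 of 6168 probe sets, or 3.05%, and in 2 of 58 members, Rpl4 and Rpl36al1. The wash error is in the record of this same array, and its part in the result was not tested. Set against the other control, the array labelled so at 6 h, the estradiol benzoate array at 24 h was higher by a log2 of 0.55 for Rpl4, 0.95 for Rpl36al1 and 0.27 for Rps29, all under 2-fold. In that comparison 1 member was past the rule on the higher side and 5 on the opposite side, against 17.2% of 5816 probe sets in either direction.

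Under the rule at 24 h, Rpl22, Rps27l and Rps9 had the largest positive differences. Rpl22, an RNA-binding protein of the large subunit, read 16704 with estradiol benzoate and 8619 in the control, a log2 difference of 0.95. Rps27l, a paralog of Rps27 that p53 induces in human cells, read 6687 and 3635, a difference of 0.88. Rps9, an early-binding protein of the small subunit, read 15031 and 9800, a difference of 0.62. On the arrays labelled estradiol benzoate and control at 6 h Rpl22 read 10277 and 10960, and Rps9 12311 and 14346. For Rpl22 and Rps9 the control at 24 h was thus the lowest array. On the lower side Rps15, a small subunit protein (its rc_AA892895_i_at set), Rpl27 and Rpl17 had the largest differences, -0.81, -0.76 and -0.64. Rpl27 had a second probe set with a log2 difference of 0.32, so its 2 probe sets pointed in opposite directions.

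Other members named for their roles were under 2-fold at 24 h. Rps6, the target of the growth-regulated S6 kinases, had log2 differences of -0.22 and 0.15 on its 2 probe sets. Rpl11 and Rpl23, which bind the p53 regulator Mdm2 when ribosome assembly is disturbed, lay between -0.27 and 0.32 over 4 probe sets. Rplp0, the base of the stalk that recruits elongation factors, read 15131 with estradiol benzoate and 13954 in the control, a difference of 0.12. Rpl3, a protein close to the catalytic centre, differed by 0.16 and 0.18. Rplp1, Rplp2, Rpl10a and Rps27a had no single-symbol probe set and are not analysed here.

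At 6 h the array labelled estradiol benzoate was set against the array labelled control. Of 58 members 1 reached 2-fold on the higher side and 2 on the opposite side, 5.17% in all, and with quantile normalization 2 and 2. Over 5745 probe sets 13.2% passed the rule, 7.45% on the higher and 5.78% on the lower side. The median log2 difference was -0.145 over members, -0.12 over large and -0.22 over small subunit names, beside -0.02 over all probe sets, and quantile normalization turned the sign over members, to 0.09. Below 0 lay 41 of 58 members, and 17 lay above. The 2017 probe sets in the members' middle 90% of brightness had a median of 0.02, with 13.4% past the rule, and the 209 bright ones a median of -0.17, with 4.78% past it.

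Rps29, Rpl23 and Rpl13a were the 3 members past the rule at 6 h. The X58200mRNA_g_at set of Rpl23 read 5443 on the array labelled estradiol benzoate and 11338 on the array labelled control, 2.08-fold lower, against 13902 and 11126 with estradiol benzoate and in the control at 24 h. Its other set, which shares the source sequence, read 8756 and 10659 at 6 h, a log2 difference of -0.28. Rpl13a, a large subunit protein that also blocks translation of inflammatory messengers in human cells, read 5618 with the estradiol benzoate label and 2759 with the control label on its dimmer set, 2.04-fold higher. On its brighter set the readings were 9827 and 10866, a log2 difference of -0.14. Both genes thus passed the rule on 1 of 2 probe sets. Set against the 24 h control, the array labelled estradiol benzoate at 6 h had 6 members past the rule on the higher side and 3 on the opposite side, against 10.6% of 5746 probe sets in either direction. There Rpl13a differed by a log2 of 0.22, under 2-fold, Rpl23 by -1.03 and Rps29 by -1.19. An arrangement low on the array labelled estradiol benzoate at 6 h alone was met by 26 of 6168 probe sets, 0.422%, and by Rpl23 and Rps29 among members.

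Under the rule at 6 h, Rpl41, Rpl3l and Rps27l had the largest negative differences, -0.86, -0.80 and -0.64. Rps27l read 2574 with the estradiol benzoate label and 3998 with the control label, so that its differences at 24 h and 6 h were of opposite sign. Next came bright sets of Rpl3, Rpl31 and Rpl27a, all of the large subunit, at -0.61, -0.59 and -0.57. Rpl31 read 17012 with estradiol benzoate and 15584 in the control at 24 h, and 8959 and 13484 in that order at 6 h, the array labelled estradiol benzoate at 6 h being the lowest. On the positive side the set annotated to the pseudogene Rps4x-ps9 differed by 0.76, with 7502 and 8711 at 24 h, and 8273 and 4890 at 6 h. Whether this bright set detected the pseudogene alone was not tested. Rpl35 and Rpl35a, both of the large subunit, differed by 0.68 on the dimmer Rpl35 set and by 0.55. Rpl39, a very small protein of the exit tunnel, read 8705 with estradiol benzoate and 6184 in the control at 24 h, and 6640 and 4304 in that order at 6 h. It was on the higher side at both times, by 0.49 and 0.63, each under 2-fold.

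**Figure D2:**
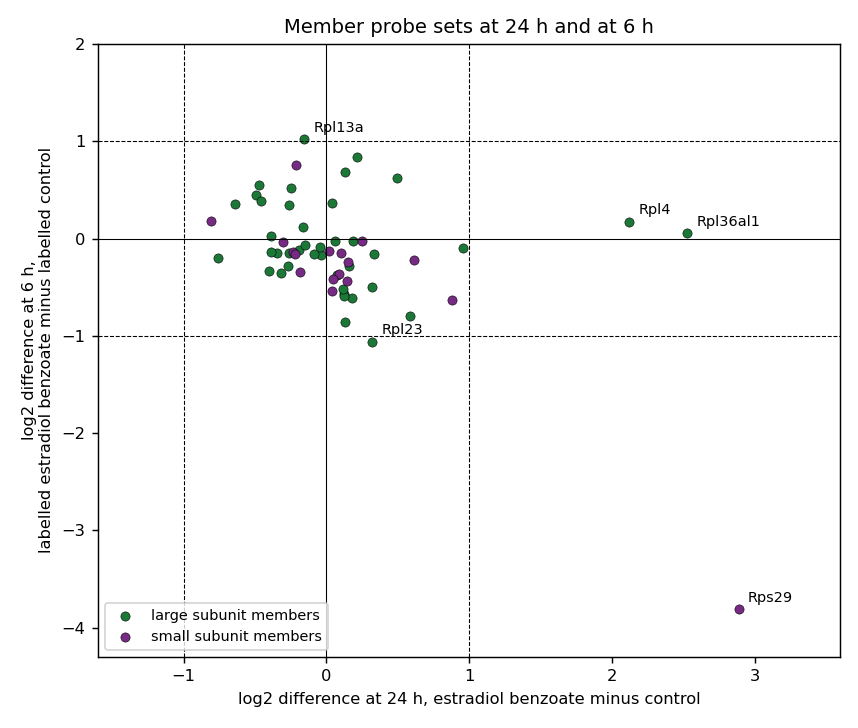
Log2 difference at 24 h (horizontal, estradiol benzoate minus control) against that at 6 h (vertical, labelled estradiol benzoate minus labelled control) for the 58 measured member probe sets, with 2-fold marked by dashed lines. Nearly all points lie inside the dashed square, Rpl4 and Rpl36al1 lie to the right at 2.12 and 2.53, and 1 Rps29 probe set lies alone at 2.89 and -3.81.

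Rps29 left the family on 1 of its 2 probe sets. It is a small zinc-binding protein of the head of the small subunit. The X59051cds_s_at set read 6468 with estradiol benzoate and 875 in the control at 24 h, 7.39-fold higher, and 382 with the estradiol benzoate label and 5355 with the control label at 6 h, 14.0-fold lower. It was the 1 member of 58 past 2-fold in opposite directions at the 2 times, against 4.0% of 5353 probe sets, while 0 members and 0.747% of probe sets were past it in the same direction. The rc_AA965264_at set read 12942 and 12148 at 24 h, and 9019 and 11623 in the same order at 6 h, with log2 differences of 0.09 and -0.37. Only the first set was high on the estradiol benzoate array at 24 h and the array labelled control at 6 h and low on the other pair. That is the arrangement of the estrogen targets: Pgr, for which the brightest set read 2143 and 654 at 24 h, and 461 and 2669 at 6 h, and Hsd11b2, with 6123 and 809 at 24 h, and 462 and 3849 at 6 h.

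This arrangement was uncommon on the arrays. With both high arrays at least 2-fold above both low ones it was met by 56 of 6168 probe sets, 0.908%, and by this 1 member of 58. Epithelial markers, when summed, had the same order of arrays, carried by the keratins. Over 7 probe sets of 5 genes (Krt8, Krt18, Krt19, Epcam and Muc1) they read 3932 with estradiol benzoate and 1212 in the control at 24 h, and 822 and 2222 on the arrays labelled estradiol benzoate and control at 6 h, with 7, 6, 3 and 6 sets above the floor in that order. Krt8, for one, read 996 and 206 at 24 h, and 69.5 and 404 at 6 h in that order. Muc1 did not follow, with 194 and 283 at 24 h, and 244 and 329 at 6 h, and Epcam, at 355 and 127 at 24 h, was below the floor on both 6 h arrays. The part of epithelium in the Rps29 signal was not tested. The sums of leukocyte markers (12 probe sets of 6 genes) were 7657 and 11735 at 24 h and 9069 and 11109 at 6 h in that order. These markers did not move together. At 24 h 2 of 10 measured sets were at least 2-fold higher with estradiol benzoate, of Lyz2 and Coro1a. On the opposite side 6 passed, of Cd74, RT1-Da and Cd53, where 8.9% of all probe sets were higher and 8.93% lower. The sums of endothelial markers (5 probe sets of 4 genes) were 769 and 1367 at 24 h and 1058 and 1409 at 6 h. Stroma sums (13 of 5 genes) lay between 22040 and 31040 and blood cell sums (2 of 2 genes) between 5896 and 12899. Which sequence the first Rps29 set detected, and whether it detected Rps29 alone, was not tested.

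Between the times the bright members shifted together, by an amount that depended on the scaling. The comparison asks whether the 2 controls were alike, and scan day goes with it. In the control at 24 h, set against the array labelled control at 6 h, 0 of 58 members reached 2-fold on the higher side and 5 on the opposite side, 8.62% in all, and with arrays scaled to a common median 2 and 5. The 5 were both dim sets of Rpl21, Rpl4, Rpl36al1 and Rps29. Over 5817 probe sets 19.1% passed the rule, 9.01% on the higher and 10.1% on the lower side. The median log2 difference was 0.23 over members, 0.25 over large and 0.16 over small subunit names, beside -0.02 over all probe sets, and with quantile normalization the median over members was -0.01. Between the estradiol benzoate array at 24 h and the array of that label at 6 h, 5 members reached 2-fold on the higher side and 5 on the opposite side, 17.2% in all. This was near the background, since 16.5% of 5731 probe sets passed the rule, 6.46% on the higher and 10.0% on the lower side. Scaling to a common median made the split 11 to 4 in members and 599 to 343 in all probe sets, in place of 370 to 573, and with quantile normalization it was 4 to 5 and 449 to 388. There the median was 0.38 over members, 0.38 over large and 0.50 over small subunit names, beside -0.18 over all probe sets, and quantile normalization turned the sign over members, to -0.10.

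The shift was seen in bright members and in other bright probe sets alike. Of 27 members with a geometric mean signal over 10000, 26 were brighter with estradiol benzoate at 24 h than on the array of that label at 6 h, by a median log2 of 0.52, and so were 56 of 58 probe sets of that brightness outside the family, by 0.61. In the control at 24 h 25 of the 27 members were brighter than on the array labelled control at 6 h, by a median of 0.25, and 51 of the 58 others, by 0.27. On the array labelled estradiol benzoate at 6 h 25 of the 27 members were dimmer than on the array labelled control, by a median of -0.24, and 51 of the 58 others, by -0.34. Members between 5000 and 10000, 15 in number, had medians of 0.38 between the estradiol benzoate labels, 0.37 between the controls and -0.03 at 6 h, beside 0.34, 0.23 and -0.12 in 114 probe sets outside the family. Between 1000 and 5000 the medians of 9 members were 0.22, -0.14 and 0.02 in the same order, so between the controls the shift was not largest in the brightest members. With quantile normalization the 27 members split 13 above 0 to 14 below between the estradiol benzoate labels, 12 to 14 between the controls with 1 at 0, and 14 to 13 at 6 h. That method gives each rank the same value on every array, so a shift shared by the brightest probe sets is removed whatever its source. The near-even splits are thus largely fixed by the method and are no check of the shift. The spiked-in transcripts, which are not rat RNA, were also brighter on both 24 h arrays and dimmer on the array labelled estradiol benzoate at 6 h than on the array labelled control. At 24 h, however, they read 4280 with estradiol benzoate and 3182 in the control, where the 27 members differed by a median log2 of 0.04. Whether the shift lies in the tissue RNA was not tested.

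**Figure D3:**
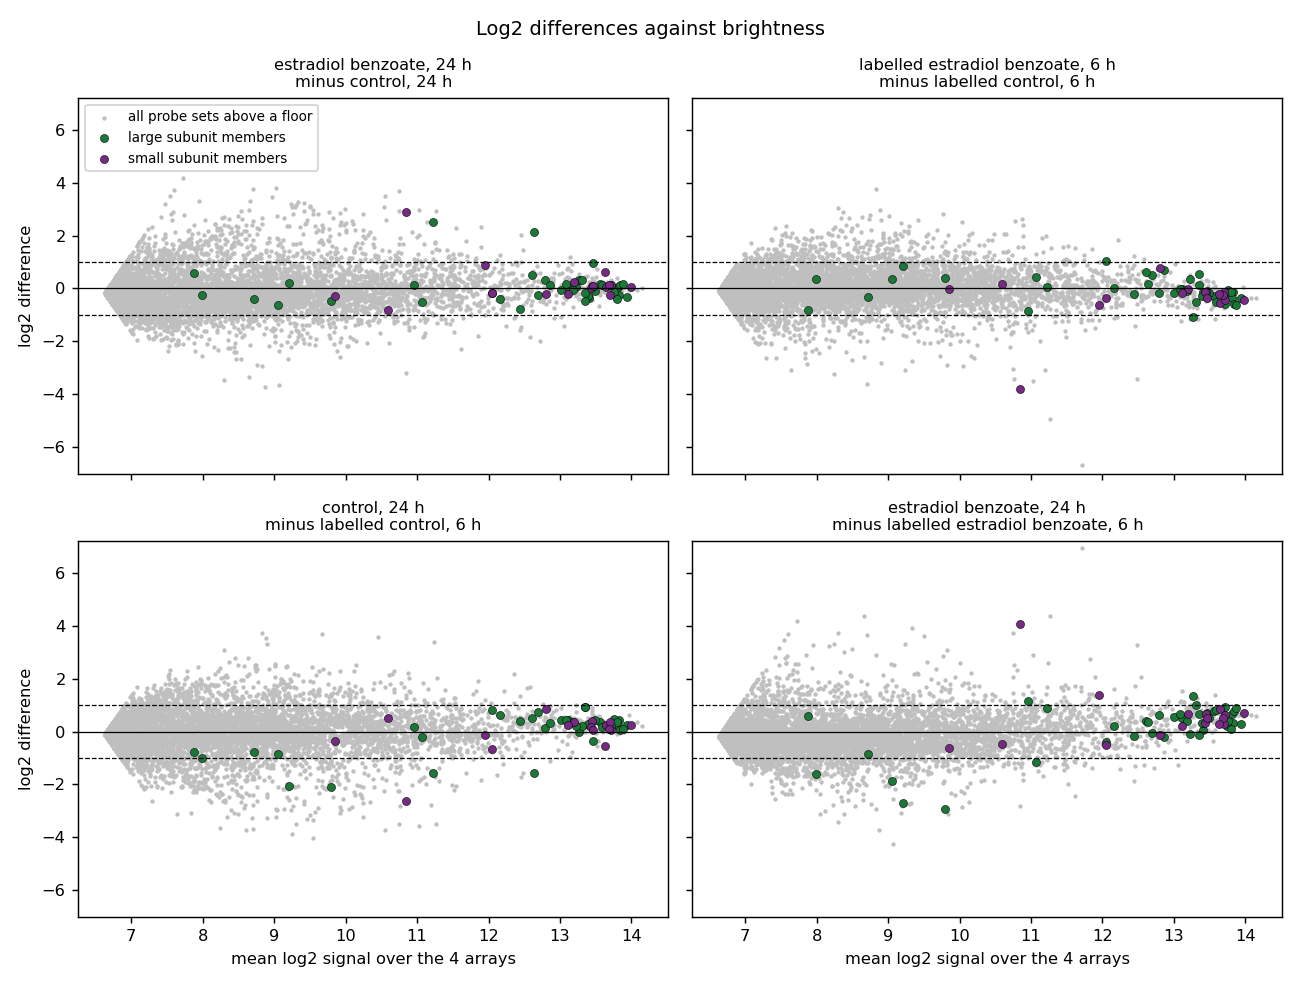
Log2 difference against mean log2 signal over the 4 arrays, with all probe sets above a floor in grey, large subunit members in green and small subunit members in purple, and 2-fold as dashed lines. At 24 h the brightest members centre near 0, while between the times they lie above 0 together with the grey points of the same brightness, a shift whose sign over members turns with quantile normalization. That normalization takes out a shift shared by the brightest probe sets.

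Dim members went the other way between the times. Of 7 members with a geometric mean signal under 1000, 0 were higher and 7 lower in the control at 24 h, set against the array labelled control at 6 h, by a median log2 of -0.86. With estradiol benzoate at 24 h, set against the array of that label at 6 h, 1 was higher (Rpl3l) and 6 lower, by a median of -1.61. Both splits were the same with median scaling and quantile normalization. The 4950 other probe sets under 1000 included sets at the floor on both arrays of a pair. Their medians, -0.10 between the controls and -0.19 between the estradiol benzoate labels, equal the differences between the array floors. These medians, and the 2164 and 1609 sets that were higher, are therefore no measure of like brightness for the 7 members. Over all measured probe sets, without pairs at the floor on both arrays, the medians were -0.02 and -0.18. The 7 were the sets of Rpl5, Rpl17, Rpl30 and Rps24, 1 of Rpl3l and 2 of Rpl21. Rpl21, a large subunit protein, had 4 probe sets that fell into pairs. Its rc_AA849648_at set read 317 with estradiol benzoate and 436 in the control at 24 h, against 2416 and 1853 in that order at 6 h, and the rc_AA849648_g_at set, from the same source sequence, read 279 and 240 at 24 h, against 1793 and 1004 at 6 h. Both were at least 2-fold lower on both 24 h arrays than on both 6 h arrays, an arrangement met by 36 of 6168 probe sets, 0.584%. By contrast the M27905_at set read 10706 and 10284 at 24 h, against 7433 and 7539 at 6 h. On the X15216cds_s_at set the values were 6864 and 8161 at 24 h, against 7054 and 4920 at 6 h. The bright pair of Rpl21 thus stayed with the family, and the dim pair did not.

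Rpl17 and Rpl5 were also lower on both 24 h arrays than on both 6 h arrays, though by less than 2-fold for some pairs of arrays. Rpl17, which sits at the mouth of the exit tunnel, read 266 with estradiol benzoate and 414 in the control at 24 h, against 965 and 752 in that order at 6 h, so that the estradiol benzoate array at 24 h was 3.63-fold below the array of that label at 6 h. For Rpl5, which carries the 5S RNA into the large subunit, the readings were 148 and 177 at 24 h, against 449 and 353 at 6 h, a 3.05-fold difference between the estradiol benzoate labels. Rpl19l4, a copy of Rpl19, read 1430 and 2011 at 24 h, against 3150 and 2318 at 6 h, and was 2.20-fold lower in that comparison. On the higher side between the estradiol benzoate labels stood Rps29 (16.9-fold), Rps27l (2.60-fold), Rpl23 (2.55-fold), Rpl41 (2.23-fold) and Rpl27 (2.03-fold), each on 1 probe set.

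Counted over all 4 arrays, 7 of 58 measured members left the family pattern, against 14.7% of 6168 probe sets that lay as far from it. The rule was a distance of at least 1 on the log2 scale from the median of members on an array, after each probe set's own mean was taken off. They were the X59051cds_s_at set of Rps29, both dim sets of Rpl21, and the sets of Rpl36al1, Rpl4, Rpl17 and Rpl5. Just inside the rule was Rpl5, at 1.07 on the array labelled estradiol benzoate at 6 h, and just outside were Rpl30, at -0.80 with estradiol benzoate at 24 h, and Rpl19l4, at 0.80 on the array labelled estradiol benzoate at 6 h. The other 51 held within that distance, Rps29's second set among them.

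**Figure D4:**
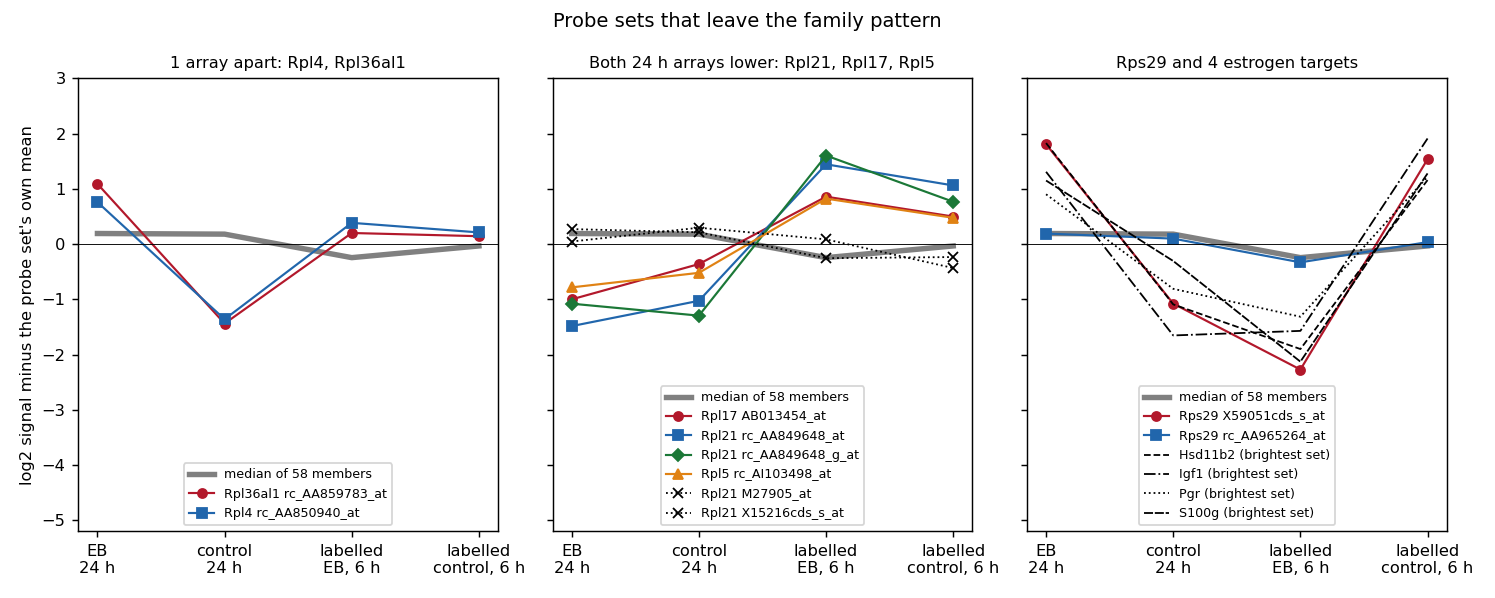
Log2 signal less each probe set's own mean on the 4 arrays for the 7 probe sets that left the family pattern, beside the median of 58 members (thick grey line), with the bright Rpl21 sets dotted in the middle panel and Igf1, Pgr, S100g and Hsd11b2 as black lines in the right panel. Rpl4 and Rpl36al1 dip on the 24 h control alone, the dim Rpl21, Rpl17 and Rpl5 sets are low on both 24 h arrays, and 1 Rps29 set runs with the estrogen targets while the other runs with the family.

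Genes with several probe sets showed how far readings of 1 gene can differ. Of 16 such genes, the lowest and the highest log2 difference lay at least 1 apart for 2 genes at 24 h (Rps29 and Rpl27), for 2 at 6 h (Rps29 and Rpl13a), for 3 between the controls (Rpl21, Rps29 and Rps15) and for 5 between the estradiol benzoate labels. Median spans were 0.30, 0.31, 0.24 and 0.33 in that order. The 16 genes include Rps2-ps1, with both sets at the floor on every array and so a span of 0. They also include Rpl3l, with 1 of its sets at the floor on every array. For Rps3, at the entry of the messenger channel, and for Rps6, Rpl3, Rpl6, Rpl11, Rpl24, Rpl26 and Rpl35 the span stayed under 0.4 in all 4 comparisons. Probe sets annotated to 1 gene are no replicates of a condition.

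A limma fit of both times, with treatment and time as terms and 1 residual degree of freedom, was the test used. It takes the labels at 6 h as given, was not run with them exchanged, and so cannot rank members by estradiol benzoate if they were. Its residual is the change of the label difference between the times. A probe set with opposite signs at 24 h and 6 h, such as the X59051cds_s_at set of Rps29, is thus taken as spread. Of 58 members 0 had a Benjamini-Hochberg adjusted p under 0.05 for treatment and 0 an unadjusted p under 0.05, while over 6168 probe sets the counts were 0 (0.0%) and 106 (1.72%). Rpl4 had the smallest limma p of any member, 0.124, with an adjusted p of 0.999 and a log2 difference of 1.15, and was higher with the estradiol benzoate label at both times. With treatment as the only term 0 members had an adjusted p under 0.05 in limma.

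Genes linked to the making of ribosomes are set here beside the ribosomal proteins. The list held Ncl, Nop58, Nolc1, Gnl3, Dkc1, Mybbp1a, Ddx21, Polr1b, Ubtf and Myc, so not assembly factors alone. At 6 h the estradiol benzoate label was set against the control label. There 0 of 19 measured probe sets of these 10 genes passed 2-fold on the higher side. On the opposite side 10 passed, where 5.78% of all probe sets did. Gnl3, Mybbp1a and Myc each entered that count by more than 1 set. The median log2 difference of the list was -1.07, beside -0.145 over ribosomal proteins. Quantile normalization left the first at -1.12 and turned the second to 0.09. The list was the dimmer of the 2. Its brightest set on the array labelled control at 6 h, of Ncl, read 4799, where the median measured member read 8119. Outside the family, log2 differences at 6 h had a standard deviation of 0.69 under a mean signal of 1000 and of 0.27 over 10000. The 2 medians thus come from unlike brightness. Nop58, a core protein of the particles that modify ribosomal RNA, read 435 with the estradiol benzoate label and 2571 with the control label, and Gnl3, a nucleolar GTPase, read 931 and 3505 on its brightest set. At 24 h 4 of 17 measured sets passed on the higher side, where 8.9% of all did, and 0 on the opposite side, and the median difference was 0.32. Both sets of Dkc1 were among the 4, and on both the control at 24 h was the lowest array. The brighter read 852 with estradiol benzoate and 89.7, below the floor, in the control at 24 h, and 1075 and 1476 at 6 h. The wash error is in the record of that control, and its part was not tested. Mybbp1a, a nucleolar protein, read 1512 with estradiol benzoate and 426 in the control on its brighter set. Between the controls 0 of 19 passed on the higher side and 13 on the opposite side, where 10.1% of all did, and between the estradiol benzoate labels 3 and 1 of 17. The difference between the 2 lists was not tested.

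Rpsa and Rack1 are ribosomal proteins whose symbols lie outside the naming rule. Rpsa, a small subunit protein also known as a laminin receptor, read 14040 with estradiol benzoate and 11157 in the control at 24 h, and 7556 and 8311 on the arrays labelled estradiol benzoate and control at 6 h. Rack1, a signalling scaffold on the small subunit, read 11746 and 9712 at 24 h, and 9176 and 7776 at 6 h. None of the 3 probe sets of Rpsa and Rack1 passed 2-fold in any of the 4 comparisons. Translation factors and other messengers known for a TOP start had 1 of 14 probe sets higher and 1 lower at 24 h. Over all probe sets 8.9% were higher and 8.93% lower there. At 6 h 0 of 14 passed in either direction, where 13.2% of all did. Between the controls 3 were higher, all of them sets of Eef2, and 1 lower, where 9.01% and 10.1% of all were. Between the estradiol benzoate labels the counts were 1 and 1, where 6.46% and 10.0% of all passed. Eef1a1, the factor that brings transfer RNA to the ribosome, had a bright and a dim set. Its bright set read 12065 with estradiol benzoate and 10976 in the control at 24 h, against 6527 and 8166 in that order at 6 h, and its dim set read 169 and 344 at 24 h, against 1447 and 1359 at 6 h. Eef2 is the factor that moves the ribosome along the messenger. Its rc_AA892801_at set differed the other way from the dim Eef1a1 set, with 1665 and 2662 at 24 h, against 804 and 468 at 6 h. Its brightest set, rc_AI178750_at, read 10729 and 7224 at 24 h, against 6786 and 9328 at 6 h. Between the controls the log2 difference was thus 2.51 on the former and -0.37 on the latter.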

How the data were processed

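Probe set intensities were deposited by the authors as 1 table. Per the submitters' processing notes they are MAS5 signals; the software version was not given in the sources used here. Every array already had a 2% trimmed mean of 500, so scaling to 500 left the values as deposited. Instrument records, which hold other values (lot, wash, scan day), were read per the file headers. The 59 platform controls were left out. Signals were raised to a floor at the 40th percentile of each array and turned to log2. A probe set counted as different at a log2 difference of 1 or more with the brighter array above its floor, and was measured if either array was. Symbols came from the platform annotation, and 42 of 43 member genes were found in RefSeq by gene identifier.

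The members, lists and naming rule were chosen with earlier results of these data known. Named genes were members past 2-fold, the largest differences, the brightest and dimmest genes, those leaving the family pattern, and some fixed by name; probe sets named beside these complete a gene. Replicate spread cannot be had from 1 array per group, and the number of arrays limits the precision. Python 3.11.15, R 4.3.3 and limma 3.58.1 were used, and the steps were tested on simulated data. Alternatives were other scalings, floors, folds and units, and for 24 h and 6 h the control of the other time, chosen after seeing the data.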

Additional observations from a re-analysis of the deposited data

Results flagged for a closer look

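The X59051cds_s_at set of Rps29 was past 2-fold in opposite directions at the 2 times, with a log2 difference of 2.89 at 24 h (estradiol benzoate minus control) and of -3.81 at 6 h (labelled estradiol benzoate minus labelled control). The difference between the times was not tested, since each rests on 1 array per group. Of 5353 probe sets measured at both times 214, or 4.0%, were past 2-fold in opposite directions, and 40, or 0.747%, in the same direction. Of 58 members 1 and 0 were. All of these directions take the labels at 6 h as given. With those labels exchanged, the same and the opposite direction would change places, in the counts and for Rps29.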

How the results depend on the processing

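With 1 array per group no array could be left out and no paired analysis was possible because the labels carry no replicate numbers. Counts of members past the rule, 3 at 24 h, 3 at 6 h, 5 between controls and 10 between estradiol benzoate labels, became 9, 12, 16 and 29 at 1.5-fold, where 34.6% to 41.9% of all probe sets pass. At 3-fold the last 3 became 1, 3 and 5, with 4.09%, 7.08% and 4.78% of all. Scaling to a common median gave 5 at 24 h. Averaging the probe sets of each gene gave 1 at 6 h and 3 between controls. With a gene's brightest set the counts were 0 at 6 h, 2 between controls and 6 between estradiol benzoate labels. Against the control of the other time they were 6 at 24 h and 9 at 6 h, with medians of 0.27 and -0.43. Medians over members were 0.18 at 24 h and 0.60 between estradiol benzoate labels with arrays scaled to a common median, 0.087 at 6 h, -0.013 between controls and -0.10 between estradiol benzoate labels with quantile normalization, and 0.51 between estradiol benzoate labels with a gene's brightest set. A median counted as moved beyond a log2 of 0.1. Other settings left counts within 1.5 times and medians within that distance. Median scaling moved the median of all probe sets at 24 h to -0.03 from -0.16, and between estradiol benzoate labels to 0.04 from -0.18. Apart from the 1.5-fold rule and the values as deposited, which cannot end a call, 132 values of single members past the rule kept it, 16 lost it and 0 changed sign. In limma 0 members were called in all 5 settings, and without the filter on dim probe sets Rpl39 alone had an unadjusted p under 0.05, of 0.0499.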

Other observations

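Mitochondrial ribosomal proteins, which make up the separate ribosome of that organelle, were much dimmer than the cytosolic ones and were measured in 16 of 17 probe sets at 24 h. There 3 were at least 2-fold higher with estradiol benzoate and 0 lower, where 8.9% and 8.93% of all probe sets were. The median log2 difference was 0.12. Mrpl3 read 1246 with estradiol benzoate and 251 in the control at 24 h, and 793 and 755 on the arrays labelled estradiol benzoate and control at 6 h. Mrps14 read 454 and 153 at 24 h, and 284 and 386 in that order at 6 h. In both genes the control at 24 h was the lowest array, as it was for Rpl4 and Rpl36al1. A set of Mrpl38, also past the rule, read 307 with estradiol benzoate at 24 h. It was below the floor on every other array.

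The 40 family probe sets with several symbols, which were left without gene names, seldom passed the rule. Of 38 measured, 0 were past 2-fold at 24 h, 1 at 6 h, 0 between the controls and 1 between the estradiol benzoate labels. Over all probe sets the shares in that order were 17.8%, 13.2%, 19.1% and 16.5%. Over the 209 bright ones outside the family they were 7.18%, 4.78%, 5.74% and 11.0%. Their median log2 differences were 0.00 at 24 h, -0.105 at 6 h, 0.33 between the controls and 0.50 between the estradiol benzoate labels.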
